A study of Mus musculus with 18 samples.

Results

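Interferon-stimulated genes are the genes that cells switch on when interferon, a cytokine released on sensing virus or damaged nucleic acid, reaches its receptor. A list of 32 of them was taken by symbol from the 41605 genes counted in mouse skin, and their expression was followed across 18 RNA sequencing libraries. All 32 were found, and all 32 passed the filter on low counts. The rule names the genes and uses no measured value, though the list was chosen with earlier results of these data known. The libraries came from skin of C57BL/6 mice aged 8 to 12 weeks, treated with Detergent A, Detergent B or PBS, the buffered saline control, with 6 libraries in each group. All groups share strain, tissue and age range. The series is about household laundry detergents, and the labels give neither the products, the dose nor the duration of treatment. The labels also do not say whether each library came from its own animal, so p-values here measure the spread between these samples.

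Type I interferons (the alpha and beta families, with interferon kappa and epsilon in epithelia) bind a receptor of IFNAR1 and IFNAR2, and type III interferons (lambda) bind IFNLR1 paired with IL10RB. Both receptors act through the kinases JAK1 and TYK2 on STAT proteins, among them STAT2, which with IRF9 is part of the complex ISGF3. ISGF3 binds a repeated GAAA element, the interferon-stimulated response element, in the promoters of its target genes. Type II interferon (gamma) acts through a separate receptor and a different promoter element, the gamma-activated site. The products of the target genes block viral entry, translation and replication, and some of them act back on the pathway itself. In skin, keratinocytes and resident immune cells both make and respond to these cytokines.

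The 32 genes fall into groups by role. The nucleic acid sensors are Ddx58 (RIG-I), Ifih1 (MDA5) and Dhx58 (LGP2), which recognise double-stranded RNA, and Zbp1, which recognises Z-form nucleic acid. The transcription factors are Stat2 and Irf9, subunits of ISGF3, and Irf7, which drives further interferon transcription. Isg15 encodes a ubiquitin-like modifier, and Usp18 the protease that removes it and also damps the type I receptor. Ifit1, Ifit2, Ifit3 and Ifit3b belong to the IFIT family, which binds viral RNA and translation factors. Oas1a, Oas2 and Oas3 make the 2'-5' oligoadenylate signal for RNase L, and Oasl1 and Oasl2 are their relatives. Mx1, Mx2, Gbp2 and Gbp3 are dynamin-like GTPases that act on viruses and intracellular pathogens, and the Mx1 allele of C57BL/6 mice is known to be defective. The last 10 are Rsad2 (viperin, which makes a chain-terminating nucleotide), Cmpk2 (a mitochondrial nucleotide kinase), Bst2 (tetherin, which holds budding virions), Ifi44, Ifi27l2a, Ifi35, Rtp4, Xaf1, Parp14 and Trim30a.

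The promoters of 7 of these genes are printed because they show the response element of this class of genes, or, for Cmpk2, lack an exact match while its neighbour Rsad2 has one. RefSeq gives a promoter window for 23 of the 32 genes. Each window runs from 250 bases before a transcription start to 50 bases after it, on GRCm38.p6, and 27 windows cover the 23 genes. The element was searched on both strands as GAAA, any 2 bases and GAAA, and overlapping matches were each counted. It was present in 14 of 23 genes (60.9%), against 1079 of the 27025 genes with a window (3.99%). At least 2 matches were present in 7 of 23 genes (30.4%), against 72 of all genes with a window (0.266%). The gamma-activated site, searched as TTCNNNGAA, was present in 4 of 23 genes (17.4%), against 9.55% of genes with a window. The sequences below give the 250 bases before the start, 5′ to 3′ on the strand of the gene, with matches to the response element on either strand in capitals.
Isg15 (chr4:156200819-156201068, minus strand): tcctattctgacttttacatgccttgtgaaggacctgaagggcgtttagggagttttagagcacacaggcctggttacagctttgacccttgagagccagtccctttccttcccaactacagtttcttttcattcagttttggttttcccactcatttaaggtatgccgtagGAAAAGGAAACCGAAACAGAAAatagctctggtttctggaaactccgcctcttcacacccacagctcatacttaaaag
Ifit1 (chr19:34640639-34640888, plus strand): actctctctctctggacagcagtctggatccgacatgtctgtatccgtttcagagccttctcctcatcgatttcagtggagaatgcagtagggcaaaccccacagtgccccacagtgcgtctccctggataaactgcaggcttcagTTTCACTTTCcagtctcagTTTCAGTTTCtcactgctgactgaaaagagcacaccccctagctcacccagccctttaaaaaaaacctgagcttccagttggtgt
Ifit3 (chr19:34583279-34583528, plus strand): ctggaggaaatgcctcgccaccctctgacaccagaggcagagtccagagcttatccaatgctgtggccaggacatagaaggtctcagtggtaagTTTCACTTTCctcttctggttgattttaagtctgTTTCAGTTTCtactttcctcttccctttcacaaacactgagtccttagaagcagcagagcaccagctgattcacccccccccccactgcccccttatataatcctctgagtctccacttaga
Ifit3b (chr19:34607707-34607956, plus strand): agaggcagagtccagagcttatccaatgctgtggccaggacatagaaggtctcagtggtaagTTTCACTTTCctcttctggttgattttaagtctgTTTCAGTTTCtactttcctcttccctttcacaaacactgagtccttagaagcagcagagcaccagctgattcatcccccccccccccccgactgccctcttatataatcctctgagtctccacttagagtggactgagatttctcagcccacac
Oas1a (chr5:120907526-120907775, minus strand): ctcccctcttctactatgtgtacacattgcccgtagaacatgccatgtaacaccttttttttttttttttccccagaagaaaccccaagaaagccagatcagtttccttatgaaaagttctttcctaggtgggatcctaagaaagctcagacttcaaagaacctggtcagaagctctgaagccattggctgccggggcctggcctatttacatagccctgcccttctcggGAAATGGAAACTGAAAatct
Rsad2 (chr12:26456453-26456702, minus strand): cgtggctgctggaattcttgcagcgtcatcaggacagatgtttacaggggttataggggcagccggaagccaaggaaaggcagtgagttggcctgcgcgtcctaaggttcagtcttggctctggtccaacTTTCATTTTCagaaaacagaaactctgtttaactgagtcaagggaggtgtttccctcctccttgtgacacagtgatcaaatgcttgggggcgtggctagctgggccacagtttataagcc
Cmpk2 (chr12:26468965-26469214, plus strand): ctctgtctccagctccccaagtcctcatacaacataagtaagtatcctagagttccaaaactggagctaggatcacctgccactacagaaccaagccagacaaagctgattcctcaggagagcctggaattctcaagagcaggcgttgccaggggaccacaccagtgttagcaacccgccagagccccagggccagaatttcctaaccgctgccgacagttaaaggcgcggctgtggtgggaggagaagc

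Isg15 held 3 overlapping matches, the first starting 78 bases before the start. Ifit1, Ifit3, Ifit3b and Oas1a held 2 matches each, and Rsad2 held 1. The Ifit3 and Ifit3b sequences matched at 188 of 218 bases (86.2%) when offset by 32 bases without gaps, and both keep the same 2 elements. The other 9 genes with a window had no exact match, and were Cmpk2, Ifi35, Ifi44, Ifit2, Irf7, Irf9, Oasl1, Oasl2 and Xaf1. The matches are letters in a window and describe neither binding nor activity in these samples.

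All 32 genes were expressed in this skin, at low to moderate levels. Levels are given as CPM, the counts scaled to library size with TMM, and between genes per kilobase of merged exons. On that per-length scale Ifi27l2a, which encodes a small interferon-inducible protein and lies at chr12:103442167-103443680, stood at 178 CPM per kilobase over the 18 libraries. The next were Bst2 at 28, Ifi35 at 17.8, Isg15 at 16.5, Irf7 at 11.7, Ifit3 at 11.0 and Gbp2 at 10.2 CPM per kilobase. The bottom of the order held Oas3 at 1.16, Mx2 at 0.915 and Ifi44 at 0.451 CPM per kilobase. Without length correction the mean level ran between 2.77 CPM for Ifi44 and 82.4 CPM for Ifi27l2a, with 7 genes under 10 CPM. No gene had fewer than 16 counts in any library.

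The library totals ranged from 17312623 to 29599018 counts. No pair of libraries agreed within sampling noise, with a chi-square statistic of at least 9.481 per gene. PBS replicate 6 stood apart from the rest for these genes. It held the highest level among the 18 libraries for 30 of the 32 genes, and the highest among the 6 PBS libraries for all 32. Oas2 and Ifi27l2a, the other two, were highest in Detergent A replicate 2. The ratio of PBS replicate 6 to the mean of the other 5 PBS libraries had a median of 2.45 over the 32 genes and ran from 1.39 for Ifi35 to 3.82 for Ifit3b. Summed over the 32 genes it held 1300 CPM, against 542 to 748 CPM in the other 5 PBS libraries. The same library also held markers of natural killer cells at a summed 14.4 CPM over Ncr1, Klrb1c, Klre1, Gzma and Prf1. That sum was 1.96 to 3.53 CPM in Detergent A libraries, 2.25 to 3.68 CPM in Detergent B libraries and 1.85 to 4.84 CPM in the other PBS libraries. These are few reads, with 22 counts of Ncr1 in PBS replicate 6 against 0 to 9 in the other 17 libraries, and 74 of Gzma against 0 to 25. Its T cell markers summed to 32.3 CPM, against 18.5 to 24.8 CPM in the other PBS libraries. The T cell sum was 14.5 to 29.2 CPM in Detergent A libraries and 18.5 to 30.3 CPM in Detergent B libraries. Endothelium markers summed to 121 CPM in PBS replicate 6, against 69.4 to 94.6 CPM in the other PBS libraries. The endothelium sum was 78.2 to 110 CPM in Detergent A libraries and 76.0 to 140 CPM in Detergent B libraries. The hair keratins, products of growing hair follicles, summed to 163 CPM in PBS replicate 6, against 3930 to 6880 CPM in the other PBS libraries. Keratinocyte markers, which define the epidermis, summed to 23300 to 56000 CPM in Detergent A, 30200 to 50800 CPM in Detergent B and 17900 to 34300 CPM in PBS, where replicate 6 was the highest. Krt10, a keratin of differentiated epidermis, was at 10900 CPM in PBS replicate 6 and 4050 to 6710 CPM in the other PBS libraries, while Krt14 and Krt1 were not at their PBS highest there. The part of natural killer cells, keratinocytes, T cells, endothelium or hair content in the high level of the interferon-stimulated genes was not tested. The fold changes against PBS are therefore given with and without PBS replicate 6, except under the alternative tools and the hair keratin covariate. In bulk tissue, fewer cells of a type and less RNA per cell cannot be told apart.

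**Figure D1:**
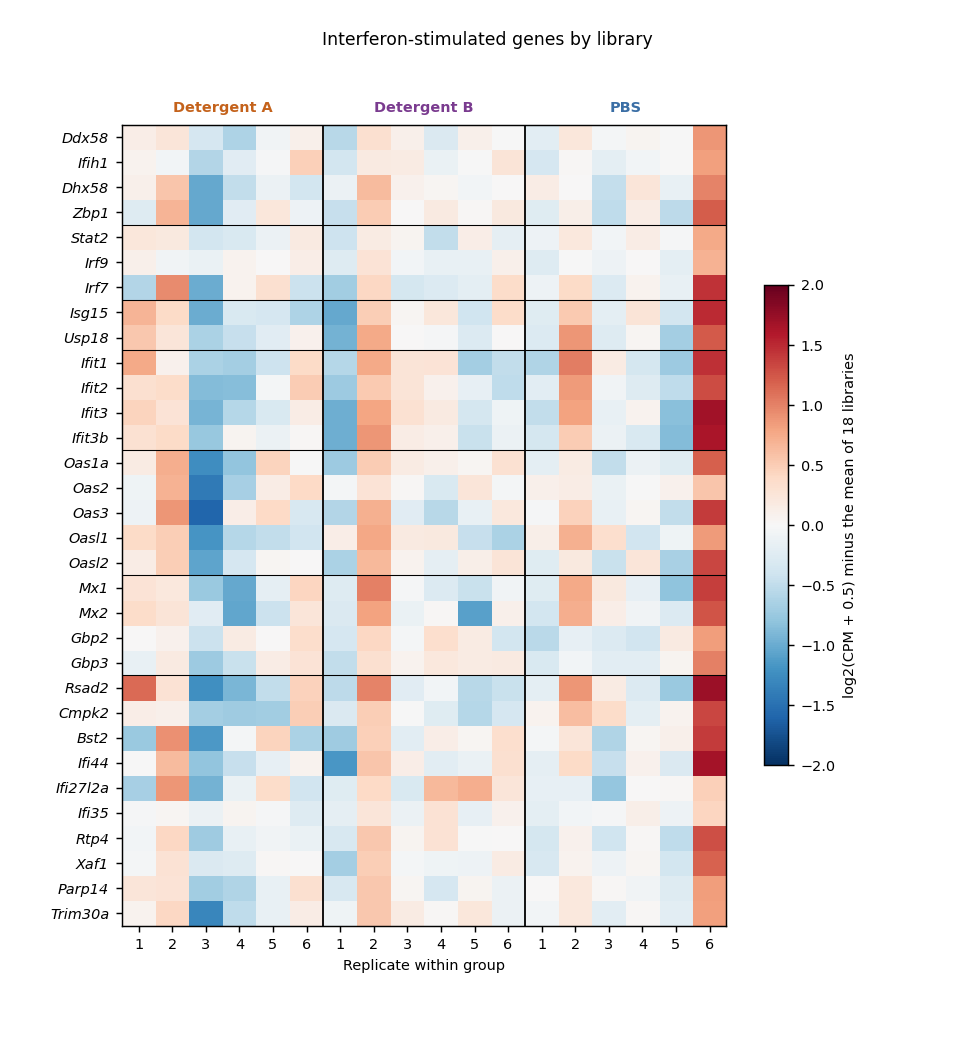
Level of each of the 32 interferon-stimulated genes (rows, grouped by role) in each of the 18 libraries (columns), as log2(CPM + 0.5) minus the gene's mean over all libraries, with red above and blue below that mean. PBS replicate 6 is red in nearly every row, Detergent B replicate 2 is pale red in most rows, and Detergent A replicate 3 is blue in most rows.

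Other libraries also moved as a block, in the detergent groups too. A score, the mean log2(CPM + 0.5) of the 32 genes, ran between 3.14 in replicate 3 and 4.34 in replicate 2 among Detergent A libraries, and between 3.45 in replicate 1 and 4.49 in replicate 2 among Detergent B libraries. It was 5.09 in PBS replicate 6 and 3.65 to 4.29 in the other PBS libraries. Detergent B replicate 2 was among the 3 highest libraries for 25 of the 32 genes. Detergent A replicate 3 was among the 3 lowest for 27 and the lowest of all for 17. The group scores were 3.83 ± 0.43 for Detergent A, 3.93 ± 0.33 for Detergent B and 4.07 ± 0.54 for PBS (SD, n = 6 each), and 3.87 ± 0.25 for PBS without replicate 6 (SD, n = 5). The group means lay closer to each other than the spread within a group.

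The series compares each detergent with PBS, and here the question is whether the interferon-stimulated genes differ. With Detergent B, none of the 32 genes differed past an adjusted p of 0.05 by edgeR, where 3.05% of the 16836 genes tested did. None passed by DESeq2 or by limma with voomWithQualityWeights either, where 8.26% and 30.1% of genes passed. At an unadjusted p under 0.05, edgeR and DESeq2 each gave 1 of the 32 (Cmpk2, lower), against 23.3% and 16.2% of the genes each tested. DESeq2 ran without the filter on low counts, so its shares here and below cover other genes than those of edgeR. They are of 28040 genes at the unadjusted threshold, and here of the 16915 with an adjusted p at the adjusted one. At the unadjusted threshold voomWithQualityWeights gave 1 of the 32 (Ifi27l2a, higher), against 42.1% of all genes. In every comparison the median standard error by edgeR was 0.30 on the log2 scale over the 32 genes and 0.15 over all genes tested. A change of the same size was thus less readily called in the 32 genes. For no gene of the list did the 6 values in Detergent B and the 6 in PBS separate without overlap, which 1.72% of all genes did upward and 1.12% downward. For 30 of the 32 genes PBS replicate 6 was the highest of the 18 libraries, so upward separation could not occur for them. Separation without that library was not tested. The median log2 fold change was -0.23 over the 32 genes and -0.01 over all genes tested, and 29 of the 32 were below 0. That median was 0.08 without PBS replicate 6, against 0.00 over all genes, with 20 genes above 0 and 12 below, and 17 of the 32 changed sign. None of the 32 passed without it, at the adjusted or the unadjusted threshold, where 11.1% of all genes passed the adjusted one. At the unadjusted threshold 2756 of the 16940 genes tested without it were higher and 2417 were lower. By voomWithQualityWeights, which weights each library by its fit, the median over all libraries was 0.08.

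Detergent A gave a similar set of values against the same PBS libraries. None of the 32 genes passed an adjusted p of 0.05 by edgeR, DESeq2 or voomWithQualityWeights, where 0.19%, 4.73% and 23.2% of all genes did. At an unadjusted p under 0.05 each tool gave 1 of the 32, Cmpk2 (lower), against 18.8% of all genes by edgeR, 13.1% by DESeq2 and 36.9% by voomWithQualityWeights. No gene of the list separated without overlap, which 0.404% of all genes did upward and 0.956% downward. As with Detergent B, upward separation could not occur for the 30 genes highest in PBS replicate 6. The median log2 fold change was -0.28, with 30 of 32 below 0, and -0.01 over all genes. It was 0.00 without PBS replicate 6, with 16 genes above 0 and 16 below, and 14 changed sign. By voomWithQualityWeights over all libraries it was -0.14. No gene passed without that library, where 5.24% of all genes did. Both comparisons share the PBS libraries, so PBS replicate 6 enters both.

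Between the detergents, Detergent B was set against Detergent A, a comparison that PBS replicate 6 enters only through the shared estimate of spread. None of the 32 genes passed by edgeR, DESeq2 or voomWithQualityWeights, and 0 of all genes (0.0%) did by any of the 3 tools. At an unadjusted p under 0.05 none of the 32 passed either, against 3.27% of all genes by edgeR, 2.75% by DESeq2 and 3.44% by voomWithQualityWeights. The median log2 fold change of the 32 was 0.06, with 26 above 0 and 6 below. It moved to -0.06 without Detergent B replicate 2 and to 0.17 without Detergent A replicate 2. The voomWithQualityWeights median was 0.24, with 31 of 32 above 0, against 0.01 over all genes, with 8946 of 16836 above 0. The 32 genes varied together between libraries, so their signs are not independent. No gene separated without overlap, which 0.0297% of all genes did in each direction.

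The size of change that these libraries allow was read from the 95% intervals of the fold changes. For Detergent B over PBS the upper bound was under 2-fold for all 32 genes and under 1.5-fold for 30 of them, with the highest at 1.91-fold for Ifi27l2a. Without PBS replicate 6 it was under 2-fold for 31 and under 1.5-fold for 11, with the highest at 2.15-fold for Ifi27l2a. For Detergent A over PBS all 32 upper bounds were under 2-fold and 31 were under 1.5-fold. Leaving out PBS replicate 6, they were still all under 2-fold, with 17 under 1.5-fold and the highest at 1.92-fold for Rsad2. The lowest lower bounds were a fold of 0.351 for Rsad2 in Detergent B and 0.385 for Ifi44 in Detergent A, and 0.501 for Rsad2 and 0.490 for Oasl1 without PBS replicate 6. For Detergent B over Detergent A the bounds ran from 0.467 for Rsad2 to 1.96 for Ifit3. The lower bound was over 0.5-fold for 17 genes in Detergent A and 18 in Detergent B over PBS, and for 31 and 32 once PBS replicate 6 was left out.

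**Figure D2:**
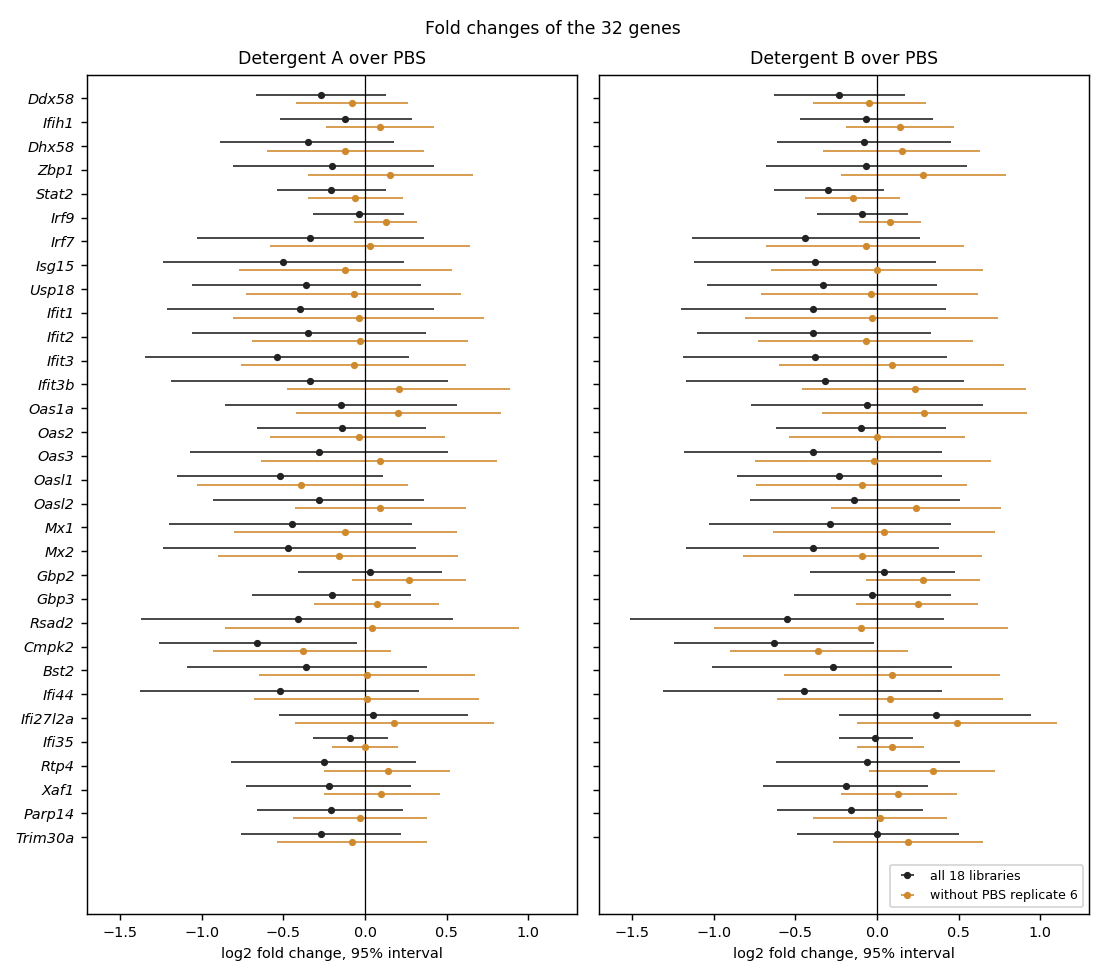
Log2 fold change with its 95% interval from edgeR for each of the 32 genes, Detergent A over PBS on the left and Detergent B over PBS on the right, with all 18 libraries in black and without PBS replicate 6 in orange. Most black points lie left of 0 (median -0.28 for Detergent A and -0.23 for Detergent B), and the orange points lie around 0 (medians 0.00 and 0.08).

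Among the sensors, Ddx58, Ifih1, Dhx58 and Zbp1 did not pass in any comparison. Ddx58, which senses short double-stranded RNA with 5′ triphosphates, had a lowest, median and highest level of 13.4, 21.1 and 24.6 CPM in Detergent A libraries. It had 14.0, 21.5 and 26.0 CPM in Detergent B libraries and 18, 21.3 and 38.7 CPM in PBS libraries. The medians were alike, and only PBS replicate 6 exceeded 26.0 CPM. Zbp1, which can start necroptosis, ranged from 8.42 to 28.4 CPM in Detergent A libraries, from 12.6 to 25.3 CPM in Detergent B libraries and from 12.1 to 41.5 CPM in PBS libraries. Its log2 fold change for Detergent B over PBS was -0.07 ± 0.29 (SE, adjusted p = 0.9168), and 0.28 ± 0.24 (adjusted p = 0.4401) without PBS replicate 6. Dhx58, a regulator of the other RNA sensors, was at 9.95 ± 3.92 CPM in Detergent A, 12.0 ± 2.66 CPM in Detergent B and 12.7 ± 5.04 CPM in PBS (SD, n = 6 each).

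Stat2 and Irf9, subunits of ISGF3, were among the steadiest genes of the list. Irf9 (chr14:55603571-55610030) was at 49.8 ± 3.67 CPM in Detergent A, 48.1 ± 6.80 CPM in Detergent B and 51.2 ± 14.2 CPM in PBS (SD, n = 6 each). Without replicate 6 PBS was at 45.6 ± 3.64 CPM (SD, n = 5). Stat2 (chr10:128270559-128292849) had a lowest, median and highest level of 39.0, 51.9 and 58.9 CPM in Detergent A, 35.7, 48.3 and 56.6 CPM in Detergent B and 47.2, 52.9 and 85.9 CPM in PBS. Its log2 fold change for Detergent B over PBS was -0.30 ± 0.16 (SE, adjusted p = 0.2689), and -0.15 ± 0.14 (adjusted p = 0.4923) without PBS replicate 6. Irf7 (chr7:141262706-141266481) varied more than its partners. It ran from 20.1 to 78.3 CPM with a median of 36.1 in Detergent A, from 24.9 to 54.0 CPM with a median of 34.4 in Detergent B and from 33.4 to 111 CPM with a median of 40.2 in PBS. The Detergent A highest was replicate 2 and the PBS highest was replicate 6, with the 3 groups overlapping over most of their range.

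Isg15 (ENSMUSG00000035692, chr4:156199424-156200818) is a common marker of interferon exposure. Its lowest, median and highest levels were 5.45, 8.98 and 18.5 CPM in Detergent A, 5.30, 12.6 and 16.1 CPM in Detergent B and 8.69, 11.7 and 32.8 CPM in PBS. The groups overlapped, and only PBS replicate 6 exceeded 18.5 CPM. The log2 fold change was -0.50 ± 0.35 (SE, adjusted p = 0.4521) for Detergent A and -0.38 ± 0.35 (adjusted p = 0.5358) for Detergent B over PBS. Without PBS replicate 6 these were -0.12 ± 0.31 (adjusted p = 0.8435) and 0.00 ± 0.31 (adjusted p = 0.9991). Usp18, which strips ISG15 from its targets, was at 6.85 ± 2.25 CPM in Detergent A, 7.0 ± 2.85 CPM in Detergent B and 8.82 ± 5.08 CPM in PBS (SD, n = 6 each).

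The IFIT genes lie side by side on chromosome 19, and none passed in any comparison. Ifit1 (chr19:34640871-34650009) ran from 8.67 to 24.4 CPM with a median of 12.8 in Detergent A, from 8.71 to 24.4 CPM with a median of 13.6 in Detergent B and from 8.37 to 39.9 CPM with a median of 13.6 in PBS. The lowest values of the groups were alike, and PBS held both extremes, in replicates 5 and 6. Ifit3 (chr19:34583531-34588731) was at 16.1 ± 5.77 CPM in Detergent A, 18 ± 7.34 CPM in Detergent B and 23.5 ± 17.5 CPM in PBS (SD, n = 6 each), and 17 ± 8.04 CPM in PBS without replicate 6. Ifit3b showed the greatest ratio of PBS replicate 6 to the other PBS libraries, at 13.3 CPM against 1.94 to 5.85 CPM. The near-identical Ifit3 and Ifit3b are uncertain as single genes, since the treatment of reads that match both is not given in the sources used here. Ifit2 had a log2 fold change of -0.35 ± 0.34 in Detergent A and -0.39 ± 0.34 in Detergent B over PBS (SE, adjusted p = 0.6080 and 0.5116), and -0.03 ± 0.31 and -0.07 ± 0.31 (adjusted p = 0.9655 and 0.8976) without PBS replicate 6.

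The 5 OAS genes lie on chromosome 5 and had a median log2 fold change of -0.28 for Detergent A and -0.14 for Detergent B over PBS, which became 0.09 and 0.00 without PBS replicate 6. Oasl2 (chr5:114896936-114912234), a relative of human OASL, had a lowest, median and highest level of 14.1, 30.3 and 42.0 CPM in Detergent A, 19.1, 31.8 and 47.1 CPM in Detergent B and 18.8, 29.7 and 76.3 CPM in PBS. Its medians were close and its groups overlapped. Oas2 had its highest level in Detergent A replicate 2 (36.9 CPM) and its lowest in Detergent A replicate 3 (8.15 CPM), so 1 group spanned the full range of the study. Oasl1, in mouse a repressor of Irf7 translation, had a log2 fold change of -0.52 ± 0.30 (SE, adjusted p = 0.3568) for Detergent A over PBS. That value was -0.39 ± 0.31 (adjusted p = 0.4573) without PBS replicate 6. Oas1a and its near copies, such as Oas1g, are uncertain as single genes.

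Among the GTPases, Gbp2, which also answers strongly to interferon gamma, had a log2 fold change of 0.03 ± 0.21 for Detergent A and 0.04 ± 0.21 for Detergent B over PBS (SE), values that were below 0 under scaling by total counts only. Gbp2 was at 25.8 ± 4.44 CPM in Detergent A, 26.0 ± 5.97 CPM in Detergent B and 25.4 ± 10.5 CPM in PBS (SD, n = 6 each). Without replicate 6 PBS was at 21.4 ± 4.36 CPM (SD, n = 5), and the log2 fold changes were 0.27 ± 0.17 (adjusted p = 0.3239) for Detergent A and 0.28 ± 0.17 (adjusted p = 0.2665) for Detergent B. Mx1 ran from 6.58 to 18.9 CPM in Detergent A, from 10.1 to 28.5 CPM in Detergent B and from 7.81 to 37.0 CPM in PBS, with the top Detergent B value in replicate 2. Mx2 stayed between 1.15 and 7.87 CPM over all libraries. Members of the Gbp and Mx families have close copies and are uncertain as single genes for the same reason as Ifit3.

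Cmpk2 (ENSMUSG00000020638, chr12:26469204-26479837) and Rsad2 (chr12:26442746-26456452), divergent neighbours on chromosome 12, had the lowest log2 fold changes for Detergent B over PBS. Cmpk2 had a lowest, median and highest level of 3.50, 5.07 and 8.71 CPM in Detergent A, 3.92, 4.96 and 8.70 CPM in Detergent B and 5.22, 7.17 and 16.0 CPM in PBS. Both detergent medians lay below the lowest PBS library, and the ranges overlapped. Its log2 fold change was -0.66 ± 0.29 (SE, adjusted p = 0.2338) for Detergent A and -0.63 ± 0.29 (adjusted p = 0.1987) for Detergent B over PBS, the smallest adjusted p of the list in each. Without PBS replicate 6 these were -0.38 ± 0.26 (adjusted p = 0.3741) and -0.36 ± 0.26 (adjusted p = 0.3640). Rsad2 ran from 3.65 to 20.8 CPM in Detergent A, from 6.13 to 18.9 CPM in Detergent B and from 5.27 to 31.3 CPM in PBS. It had the widest spread within groups of the list and a log2 fold change of -0.55 ± 0.46 (SE, adjusted p = 0.4842) for Detergent B over PBS, against -0.10 ± 0.43 (adjusted p = 0.9006) without PBS replicate 6.

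Ifi27l2a had the highest log2 fold change of the list for Detergent B over PBS. Its lowest, median and highest levels were 40.0, 65.0 and 144 CPM in Detergent A, 62.8, 97.1 and 129 CPM in Detergent B and 45.0, 73.5 and 108 CPM in PBS. The median was highest in Detergent B, the single highest library was in Detergent A, and the groups overlapped. The fold change was 0.36 ± 0.28 (SE, adjusted p = 0.4504) on the log2 scale with all libraries and 0.49 ± 0.29 (adjusted p = 0.2599) without PBS replicate 6. For Detergent A over PBS it was 0.05 ± 0.28 (adjusted p = 0.9471), and 0.18 ± 0.29 (adjusted p = 0.7400) without that library. For Detergent B over Detergent A it was 0.31 ± 0.28 (adjusted p = 0.9887). Bst2 ran from 10.1 to 43.7 CPM in Detergent A, from 13.8 to 32.2 CPM in Detergent B and from 14.9 to 61.7 CPM in PBS. Ifi35, which binds NMI, was the steadiest member, at 29.5 ± 2.32 CPM in Detergent A, 31.3 ± 4.61 CPM in Detergent B and 31.5 ± 5.19 CPM in PBS (SD, n = 6 each). Rtp4, Xaf1, Parp14, Trim30a and Ifi44 had log2 fold changes between -0.52 and 0.00 against PBS with all libraries, and between -0.08 and 0.34 without PBS replicate 6. Trim30a has close copies, such as Trim30d, and is uncertain as a single gene.

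**Figure D3:**
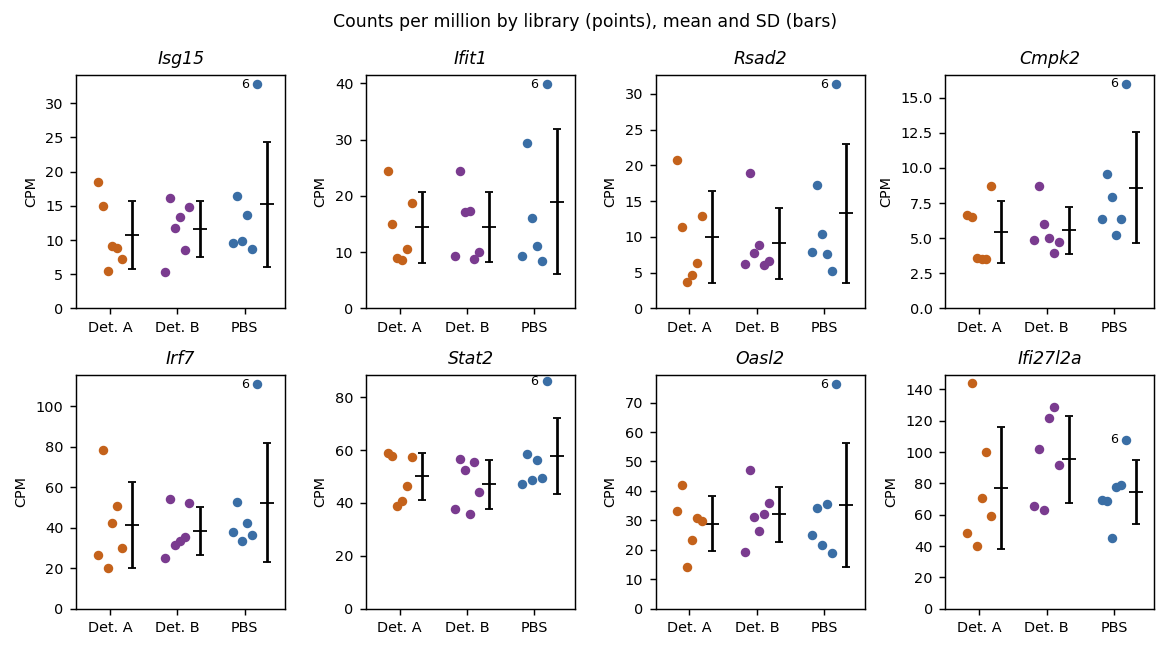
CPM of 8 of the interferon-stimulated genes in each library (points) with the mean and SD of each group of 6 (bars), for Detergent A, Detergent B and PBS, with PBS replicate 6 labelled. Values of the groups overlap in every panel, and PBS replicate 6 is the highest point in each except Ifi27l2a, where Detergent A replicate 2 is higher (144 CPM).

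The genes varied between libraries of 1 group more than most genes did, and they varied together. The SD of log2(CPM + 0.5) within groups had a median of 0.54 over the 32 genes and 0.24 over all genes tested, and 0.49 and 0.23 without PBS replicate 6. It was 0.81 for Rsad2, 0.71 for Ifit1 and Ifit3, 0.24 for Irf9 and 0.19 for Ifi35. After removal of the group means, the 496 pairs of genes had a median Pearson r of 0.74 over the 18 libraries, from 0.08 to 0.98, with 440 pairs over 0.5. Over the 17 libraries without PBS replicate 6 the median was 0.62, from -0.09 to 0.97, with 344 pairs over 0.5. As a background over the 18 libraries, r between each of the 32 genes and all 16836 genes tested, the 32 included, had a median of 0.02 with 7.33% over 0.5. All points share libraries and depth, so these values are descriptions.

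The tightest pairs were Usp18 with Ifit3 (r = 0.98), Irf7 with Bst2 (0.97) and Ifit3 with Ifit3b (0.96), and they were 0.97, 0.96 and 0.93 without PBS replicate 6. Ifit3 and Ifit3b may share reads, whose part in the last value was not tested. Within families, the median r was 0.92 for the IFIT genes, 0.74 for the sensors, 0.72 for the OAS genes, 0.65 for the transcription factors and 0.62 for the GTPases. Without PBS replicate 6 these were 0.90, 0.61, 0.73, 0.40 and 0.44. The genes most like the rest, by their median r with the other members, were Oasl2 (0.84), Ifi44 (0.82) and Rtp4 (0.82). Those least like the rest were Ifi27l2a (0.45), Ifi35 (0.55) and Oasl1 (0.60). Ifi27l2a had its highest r with Bst2 (0.89).

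**Figure D4:**
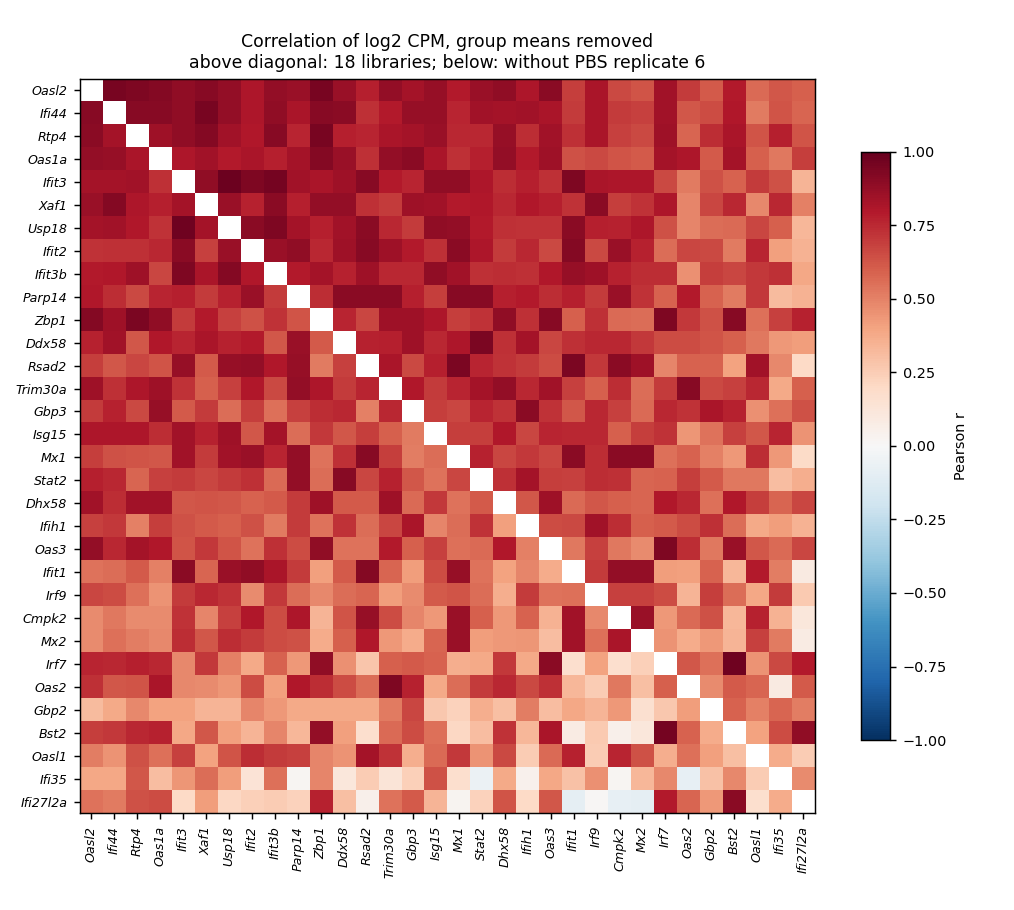
Pearson r between the log2(CPM + 0.5) of each pair of the 32 genes after group means were removed, ordered by median r, over 18 libraries above the diagonal and over 17 libraries without PBS replicate 6 below it. Nearly all pairs are positive on both sides, with medians of 0.74 and 0.62, and the palest rows are Ifi27l2a and Ifi35.

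The score of the 32 genes was set beside other lists in the same libraries, again after group means were removed. It had r = 0.96 with a list of 53 further interferon-stimulated genes and 0.79 with interferon gamma-responsive genes, and 0.93 and 0.61 without PBS replicate 6. With the natural killer cell markers r was 0.74, and 0.48 without PBS replicate 6. With hair keratins, whose level varied widely between these libraries, r was -0.11, and 0.25 without that library. With macrophage markers it was 0.24, with T cell markers 0.34 and with the log2 total count -0.31, and 0.41, 0.03 and -0.17 without PBS replicate 6. For endothelium, skeletal muscle and adipocyte markers r was 0.50, 0.42 and -0.40, and 0.33, 0.41 and -0.13 without PBS replicate 6. The remaining cell type lists had r from -0.05 to 0.22. Without PBS replicate 6 those lists ran from -0.40 for keratinocyte to 0.42 for fibroblast markers. Hair keratins summed to 13.4 to 4900 CPM in Detergent A, 19.6 to 3910 CPM in Detergent B and 163 to 6880 CPM in PBS, with medians of 757, 175 and 4960 CPM, so hair content was not even across the groups. With the hair keratin score as a covariate none of the 32 genes passed, nor did any gene in all, and the median log2 fold change of the 32 was -0.37 for Detergent A and -0.30 for Detergent B over PBS.

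**Figure D5:**
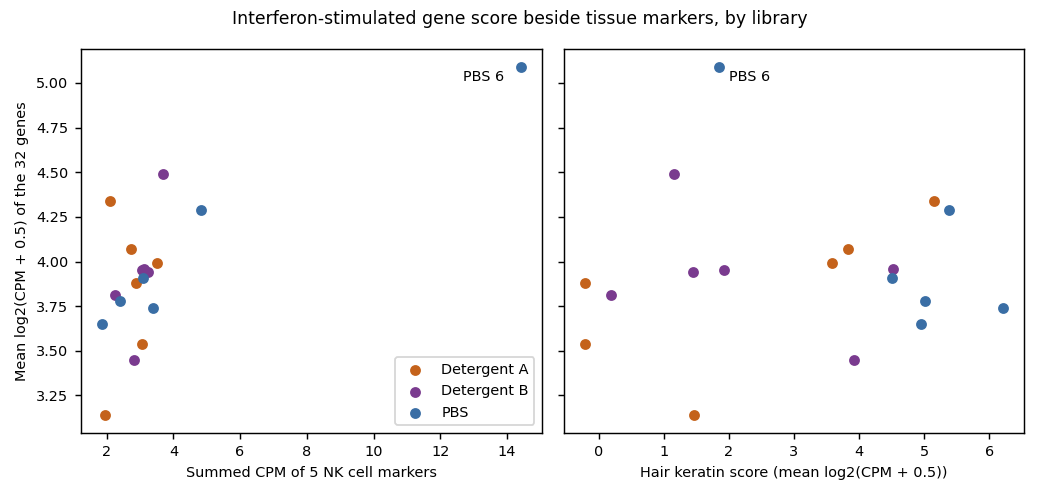
Mean log2(CPM + 0.5) of the 32 genes in each library (vertical axis) against the summed CPM of 5 natural killer cell markers (left) and against the hair keratin score, the mean log2(CPM + 0.5) of that list (right), colored by group. PBS replicate 6 lies apart at 14.4 CPM of natural killer cell markers and a score of 5.09, and its hair keratin score of 1.84 is the lowest of the PBS libraries.

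The ligands themselves were close to absent from the counts. Of 10 interferon genes listed, Ifna1, Ifna2, Ifna4, Ifna5, Ifne and Ifnl2 had 0 counts in all 18 libraries. At a floor of 3 counts this allows up to 0.0229 CPM per group. The Ifna genes, and Ifnl2 with Ifnl3, have close copies and are uncertain as single genes for the same reason as Ifit3. For them the bound holds only for reads assigned to a single gene. Ifnb1, the first type I interferon made by most cells, had 1 count in the Detergent A libraries together, 0 in Detergent B and 3 in PBS. Ifnk, the keratinocyte interferon, had 0 counts in Detergent A, 4 in Detergent B and 3 in PBS, and Ifnl3 had 0, 0 and 2. Ifng had 11 counts in Detergent A (0.0841 CPM, exact Poisson 95% interval 0.0420 to 0.150), 8 in Detergent B (0.0605 CPM, 0.0261 to 0.119) and 7 in PBS (0.0534 CPM, 0.0215 to 0.110). The intervals overlap and cover counting error only, and a difference in ligand level was not detectable at this depth.

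The receptors and signalling genes were well measured by contrast. Ifnar1 was at 45.3 ± 4.25 CPM in Detergent A, 44.0 ± 4.05 CPM in Detergent B and 48.4 ± 2.37 CPM in PBS (SD, n = 6 each). Ifnlr1, the type III receptor chain that epithelia express, was at 26.3 ± 3.66 CPM in Detergent A, 26.2 ± 3.25 CPM in Detergent B and 27.3 ± 6.40 CPM in PBS. Neither passed in any comparison. Il10rb, the second chain of the type III receptor and also a chain of the IL-10 and IL-22 receptors, was at 29.5 ± 3.43 CPM in Detergent A, 35.5 ± 2.96 CPM in Detergent B and 28.9 ± 5.32 CPM in PBS. Its log2 fold change for Detergent B over PBS was 0.30 ± 0.11 (SE, adjusted p = 0.1186), and 0.37 ± 0.10 (adjusted p = 0.02983) without PBS replicate 6. Irf1 was at 23.5 ± 4.88 CPM in Detergent A, 25 ± 5.39 CPM in Detergent B and 25.3 ± 8.33 CPM in PBS.

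Further genes of the pathway were counted on lists of 130 genes, which hold ligands, receptors, signalling and control, induction of interferon, other interferon-stimulated genes and interferon gamma-responsive genes. The filter kept 116 of them, and none passed by edgeR in any comparison. At an unadjusted p under 0.05, 7 were higher and 4 lower in Detergent B, and 8 were higher and 7 lower in Detergent A, against PBS, where 23.3% and 18.8% of all genes passed. DESeq2 called 1 higher and 1 lower in Detergent B and 2 higher and 1 lower in Detergent A, against 8.26% and 4.73% of all genes. The voomWithQualityWeights fit called 13 higher and 4 lower in Detergent B and 8 higher and 6 lower in Detergent A, against 30.1% and 23.2% of all genes. Each of these counts was a smaller share of the pathway genes than the calls were of all genes. By edgeR the median standard error against PBS was 0.20 for the other interferon-stimulated genes and 0.22 for the gamma-responsive genes. It was 0.12 to 0.13 for the receptor, signalling and induction lists, and 0.15 over all genes tested. A wider error leaves fewer genes called for changes of the same size. Without PBS replicate 6, edgeR called 7 higher and 1 lower of the 116 in Detergent B and 4 higher in Detergent A, against 11.1% and 5.24% of all genes. The 4 in Detergent A were Jak1, Trim25, Aim2 and Cd274, which were called in Detergent B too, and these genes are named after their values were seen. Cd274, which encodes PD-L1, had a log2 fold change of 0.55 ± 0.10 (adjusted p = 0.02344) in Detergent A and 0.44 ± 0.10 (adjusted p = 0.01289) in Detergent B without PBS replicate 6, against 0.40 ± 0.13 (adjusted p = 0.1186) and 0.29 ± 0.13 (adjusted p = 0.1813) with it. The median log2 fold change of the 52 other interferon-stimulated genes tested was -0.11 in Detergent A and -0.02 in Detergent B with all libraries, and 0.05 and 0.17 without PBS replicate 6.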

How the data were processed

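Whole-number read counts per Ensembl gene were deposited by the authors, with totals that differ between libraries and so no normalization. STAR, featureCounts and the GRCm38.p5 build are named per the submitters' processing notes. Not given in the sources used here are their versions, annotation, strandedness and handling of multi-mapped reads. Overlapping, antisense and near-identical genes are therefore uncertain. Per the labels' protocols, RNA came from homogenised skin stored in RNAlater. Of 41605 gene IDs, 41519 had a GENCODE M21 symbol and GRCm38 coordinates. Promoters are RefSeq windows on GRCm38.p6.

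Libraries were grouped by their treatment label. All 18 were fitted with edgeR 4.0.16 in R 4.3.3, with its default low count filter, TMM, a robust quasi-likelihood test and group as the only term (15 residual degrees of freedom). The filter kept 16836 genes with no less than 99.89% of each library's counts. Benjamini-Hochberg adjustment ran over those genes, and adjusted p-values under 0.05 were called. Each standard error is the log2 fold change over the square root of its F statistic, without sign. The 95% intervals use the t distribution with the fitted degrees of freedom, while intervals and floors on single counts cover counting error only. Log2 levels use a pseudocount of 0.5 CPM. The script was tested on simulated counts.

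The alternatives were DESeq2 1.42.0, limma 3.58.1 (voomWithQualityWeights), other filters and size factors, a fit on the 12 libraries of a comparison, a hair keratin covariate, a replicate block, and each library left out in turn. All 32 genes could be named, and of the other pathway lists the ligands, receptors, Irf1 and any gene past the threshold, with 1 result that is not reported here. The genes, the lists and these rules were chosen with earlier results of these data known.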

Additional observations from a re-analysis of the deposited data

Results flagged for a closer look

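A total of 108 groups of 6 libraries were checked for a highest or lowest value far from its nearest neighbour, and 27 were flagged. For normally distributed values chance flags about 1 in 20. The genes were checked as CPM and not on a log scale, and whether that rate holds for them was not tested. PBS replicate 6 gave 22 of them, all as the highest of its group. It held 20 of the 32 genes, namely the sensors Ddx58 (38.7 CPM), Ifih1 (33.2 CPM), Dhx58 (22.3 CPM) and Zbp1 (41.5 CPM), and the transcription factors Stat2 (85.9 CPM), Irf9 (79.5 CPM) and Irf7 (111 CPM). Isg15 stood at 32.8 CPM there, Ifit3b at 13.3 CPM, Oas1a at 19.1 CPM, Oas2 at 33.4 CPM, Oas3 at 20.3 CPM and Oasl2 at 76.3 CPM. Gbp3 stood at 23.2 CPM, Bst2 at 61.7 CPM, Ifi44 at 8.88 CPM, Rtp4 at 37.3 CPM, Xaf1 at 29.9 CPM, Parp14 at 53.8 CPM and Trim30a at 34.7 CPM. The natural killer cell score, a mean log2(CPM + 0.5), was 1.54 in that library, and the score of interferon gamma-responsive genes was 4.77.

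Detergent B replicate 2 was the highest of its group for Dhx58 (17.3 CPM), Mx1 (28.5 CPM), Rsad2 (18.9 CPM) and Parp14 (43.8 CPM). Detergent B replicate 1 was the lowest of its group for Gbp3 (7.85 CPM). These flags are not independent, since the genes varied together between libraries.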

How the results depend on the processing

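The count of the 32 genes past the threshold was 0 in each comparison under every alternative run. With each library left out in turn, the smallest adjusted p of the 32 genes ran from 0.0971 to 0.452 for Detergent A over PBS, from 0.160 to 0.322 for Detergent B over PBS and from 0.747 to 0.9999 for Detergent B over Detergent A. Over the same fits the median log2 fold change of the 32 genes ran from -0.42 to 0.00 for Detergent A, from -0.34 to 0.08 for Detergent B, both highest without PBS replicate 6, and from -0.06 to 0.17 for Detergent B over Detergent A. Scaling by total counts only moved the median of all genes to -0.11 for Detergent A and -0.14 for Detergent B over PBS, with the 32 genes at -0.35 in both. The replicate block gave medians of -0.24 and -0.18, and voomWithQualityWeights -0.14 and 0.08, with 0.24 for Detergent B over Detergent A. Same-numbered libraries deviated together in 8 of 18 pairs (r over 0.1, range -0.39 to 0.56). With the replicate block the median standard error of the 32 genes was 0.24 in each comparison, against 0.30 without it. Libraries with different numbers were not set beside these pairs, so whether the numbers pair the libraries was not settled.

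Counts over all genes depended on the setting, and the cause was not tested. For Detergent A over PBS, 32 genes were called, against 775 by DESeq2, 3914 by voomWithQualityWeights, 220 with total counts only, 75 with a filter of at least 1 CPM in 6 libraries, 0 with the replicate block and 0 with the hair keratin covariate. Leaving out a library gave 0 to 888, the last without PBS replicate 6. For Detergent B over PBS, 514 were called, against 1397 by DESeq2, 5074 by voomWithQualityWeights, 961 with total counts only, 251 with no low count filter, 377 with the replicate block and 0 with the hair keratin covariate. Leaving out a library gave 28 (without PBS replicate 3) to 1888 (without PBS replicate 6).

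The precision is set by 6 libraries per group. Rsad2, which varied most within groups, had the widest standard error of the 32 genes (0.46 for Detergent B over PBS on the log2 scale), and the ligands, with at most 11 counts per group, allow no comparison at this depth.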
